A study of Mus musculus with 12 samples.

Results

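Fatty acid elongase and desaturase genes were followed in bulk mRNA of 2 brain regions, prefrontal cortex and striatum, in C57BL/6J mice aged 24 postnatal days. The family was taken as the deposited symbols Elovl1, Elovl2, Elovl4, Elovl5, Elovl6, Elovl7, Fads1, Fads2, Scd1 and Scd2, which are 10 of the 21872 symbols in the count table. The family was selected on the fold change of Elovl2 between lesioned and control prefrontal cortex, so their values and calls in that comparison are a description only and support nothing. The lesioned mice, labelled ADHD, received the dopamine neuron toxin 6-hydroxydopamine after birth, as a model of attention-deficit/hyperactivity disorder, and the other mice are labelled Control. There were 4 groups of 3 mRNA libraries, lesioned striatum, control striatum, lesioned prefrontal cortex and control prefrontal cortex. All mice shared the C57BL/6J strain and the age, and no label names an allele. The sources used here do not give the dose, route or day of the toxin, or the treatment of the controls. The toxin is used to destroy the dopamine input of these regions rather than cells born in them. Bulk tissue holds all cell types of these regions. Whether replicate libraries stand for different animals is not in the labels, so p-values reflect library-to-library spread only, which may be technical.

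Fatty acids are lengthened in the endoplasmic reticulum by a repeating cycle of reactions, and the Elovl enzymes carry out its rate-limiting condensation step, each with its own preferred substrates. The Fads enzymes add double bonds to dietary polyunsaturated precursors, and with Elovl2 and Elovl5 they make arachidonic and docosahexaenoic acid, which are abundant in brain phospholipids. The Scd enzymes make monounsaturated fatty acids. In brain, astrocytes are known for making docosahexaenoic acid, and oligodendrocytes build very long saturated chains into the galactolipids of myelin.

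The promoters of Elovl2, Elovl5 and Fads2 are shown as those of the members with the lowest fold changes in lesioned against control prefrontal cortex, the comparison behind the choice of the family, so the set was picked from its values. RefSeq promoters on GRCm38.p6 were at hand for 7 of the 10 genes, not for Fads1, Scd1 or Scd2. Each runs from 250 bases before to 50 bases after the start, 5′ to 3′ along the gene's own strand. Elovl2 has 2 listed starts, of which the upstream is shown, at chr13:41220354-41220653 on the minus strand. Elovl5 lies on the plus strand (chr9:77917115-77917414) and Fads2 on the minus strand (chr19:10101454-10101753). Capitals mark the GC box GGGCGG and the CCAAT box, each searched on both strands, and these letters do not overlap in the windows shown.
Elovl2: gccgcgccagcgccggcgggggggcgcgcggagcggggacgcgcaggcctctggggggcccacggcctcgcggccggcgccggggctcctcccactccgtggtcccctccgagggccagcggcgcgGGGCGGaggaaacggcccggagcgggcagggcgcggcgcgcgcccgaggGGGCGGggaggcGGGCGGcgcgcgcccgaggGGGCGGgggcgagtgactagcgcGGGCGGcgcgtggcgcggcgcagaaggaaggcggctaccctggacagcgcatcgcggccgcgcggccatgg
Elovl5: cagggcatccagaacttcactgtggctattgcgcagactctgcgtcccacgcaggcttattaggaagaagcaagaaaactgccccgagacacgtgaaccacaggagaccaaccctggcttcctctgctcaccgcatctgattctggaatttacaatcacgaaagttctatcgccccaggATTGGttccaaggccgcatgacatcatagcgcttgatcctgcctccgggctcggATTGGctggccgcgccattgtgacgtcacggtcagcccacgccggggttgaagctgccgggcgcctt
Fads2: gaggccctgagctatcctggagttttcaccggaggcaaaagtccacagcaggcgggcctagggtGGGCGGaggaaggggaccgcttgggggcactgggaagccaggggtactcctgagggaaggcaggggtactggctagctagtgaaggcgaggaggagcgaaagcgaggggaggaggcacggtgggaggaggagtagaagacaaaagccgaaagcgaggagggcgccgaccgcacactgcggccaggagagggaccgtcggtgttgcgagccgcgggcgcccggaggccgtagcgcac
The Elovl2 window held 5 GC boxes and no CCAAT box. The Elovl5 window held 2 CCAAT boxes, both on the opposite strand, and no GC box, and the Fads2 window held 1 GC box. Among 32851 promoters of the same length, 35.7% held GGGCGG and 37.4% held CCAAT on either strand. The TATA box TATAAA and the core of the sterol regulatory element, TCACNCCAC, also searched on both strands, were in none of these 3 windows and in 13.6% and 1.24% of all promoters. The same letters were searched in the other 4 genes with a promoter, where Elovl1 and Elovl4 held both boxes, Elovl7 held GC boxes and Elovl6 held neither. The window of the other Elovl2 start held neither. No motif searched was therefore shared by all 3 promoters shown.

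The authors deposited raw read counts per gene, with totals of 15078631 to 20925452 per library. Levels below are in CPM, counts divided by the library size after that size was scaled by the trimmed mean of M values (TMM). The 10 genes had between 244 and 54261 counts in each library, so none was near the detection limit, and all 10 passed the filter on low counts in every fit. The spread between libraries was wider in striatum: the biological coefficient of variation over all tested genes was 14.9% there and 5.78% in prefrontal cortex. Region markers separated the labelled tissues. Summed cortical excitatory neuron markers lay at 119 to 307 CPM in lesioned striatum and 92.3 to 959 CPM in control striatum, against 2746 to 2909 CPM in lesioned and 2801 to 3015 CPM in control prefrontal cortex. Summed striatal projection neuron markers lay at 3828 to 9487 CPM in lesioned striatum and at 1813 to 2863 CPM in control striatum, so these groups did not overlap. They lay at 407 to 598 CPM in lesioned and at 473 to 956 CPM in control prefrontal cortex. Control striatal library 2 was highest of its group in cortical markers (959 CPM) and choroid plexus and ependymal markers (2060 CPM) and lowest in projection neuron markers (1813 CPM). Lesioned striatal library 1 was highest in projection neuron markers (9487 CPM) and lowest in hypothalamic markers (87.0 CPM). Striatal results are therefore also given without these libraries. Their part in the striatal values was not tested otherwise.

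Per kilobase of the longest transcript, Scd2, the main stearoyl-CoA desaturase of mouse brain, was the most abundant of the family. It averaged 476 ± 49.3 CPM per kilobase in lesioned striatum, 401 ± 48.9 in control striatum, 294 ± 2.68 in lesioned prefrontal cortex and 283 ± 10.4 in control prefrontal cortex (SD, n = 3 each). Fads1, Fads2 and Scd1 followed at 47.4 to 78.6 CPM per kilobase over the group means. Elovl5 and Elovl4 lay between 19.9 and 35.6, Elovl6 between 13.4 and 20.0, Elovl1 between 9.15 and 19.3 and Elovl7 between 4.72 and 9.82. Elovl2 was the lowest of the family except in control prefrontal cortex, where Elovl7 was (4.72 ± 0.658). It had 3.70 ± 0.266 CPM per kilobase in lesioned striatum, 4.48 ± 0.252 in control striatum, 3.97 ± 0.265 in lesioned prefrontal cortex and 5.90 ± 0.539 in control prefrontal cortex. Scd1 and Scd2 lie 87.6 kb apart on chromosome 19, and 124 of the 4732 windows of 101 bases in Scd1 and 47 of the 5355 in Scd2 also occur in another gene, so some of their reads could be split between paralogs. Fads1 and Fads2 lie 81.1 kb apart on the same chromosome in head-to-head orientation and share no such window with any gene.

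**Figure D1:**
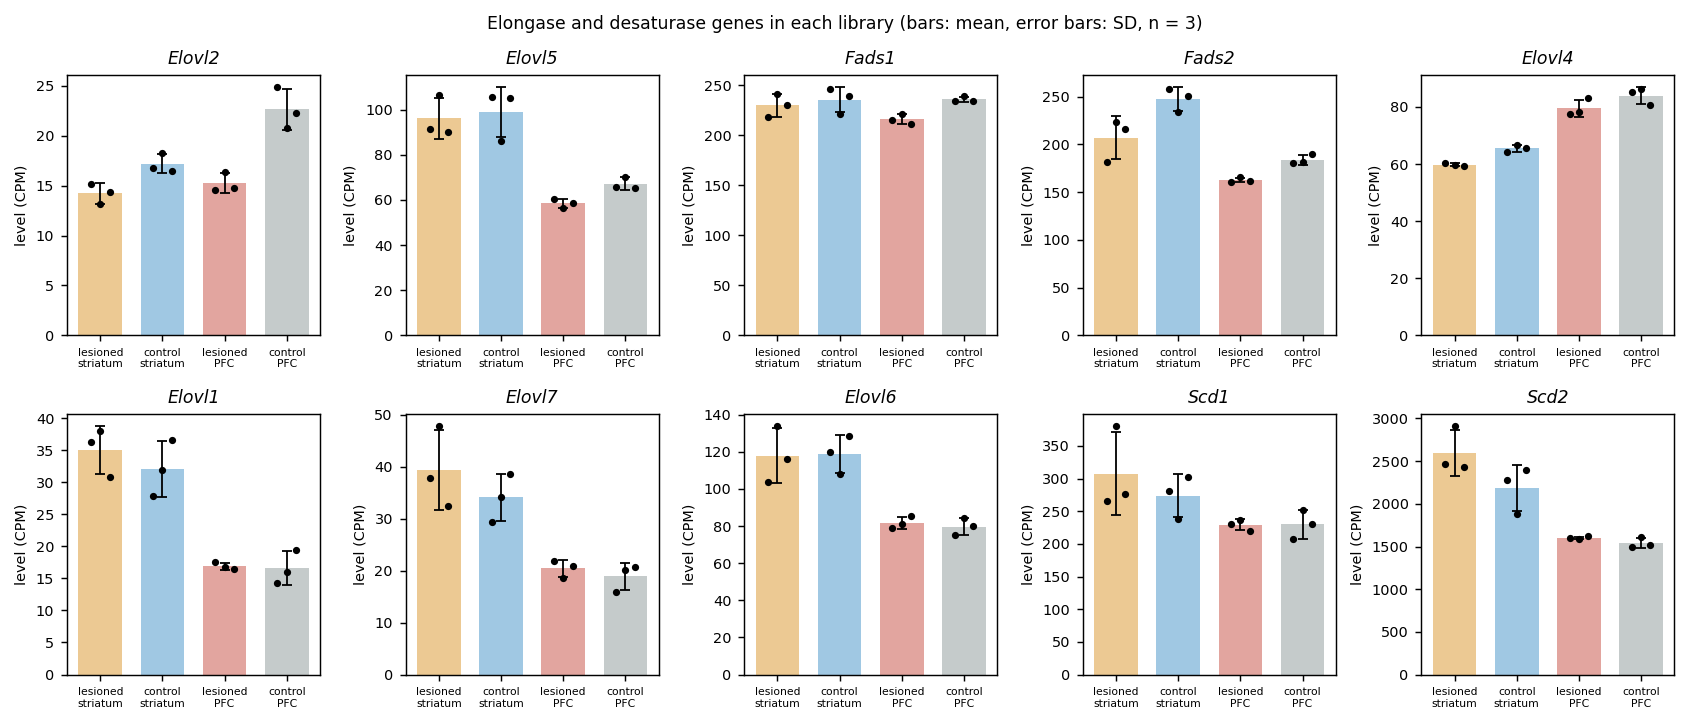
Level of each of the 10 genes in CPM (vertical axes from 0, each with its own scale), by group: lesioned striatum, control striatum, lesioned prefrontal cortex (PFC) and control PFC; points are libraries, bars means and error bars SD (n = 3). The 3 lesioned PFC libraries of Elovl2 (14.6 to 16.4 CPM) lie below the 3 control ones (20.8 to 24.9 CPM), and Elovl1, Elovl7 and Scd2 are higher in every striatal library than in any PFC library.

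The question for the lesion was which genes of each region differ in mice given the toxin. The loss of dopamine input itself was not measured here. In prefrontal cortex the description starts with Elovl2, on which the family was selected and whose enzyme lengthens long polyunsaturated chains towards docosahexaenoic acid. The gene (chromosome 13, 41182381 to 41220405, mm10) had 14.6, 16.4 and 14.8 CPM in lesioned prefrontal cortex, against 24.9, 20.8 and 22.3 CPM in control prefrontal cortex. All lesioned libraries lay below all controls, and the fitted level was 33.6% lower (log2 fold change -0.59, SE 0.10). Elovl5, which lengthens shorter polyunsaturated chains (chromosome 9, 77917364 to 77984519), had 60.6, 56.7 and 58.6 CPM in lesioned prefrontal cortex, against 65.9, 70.4 and 65.3 CPM in control prefrontal cortex. The groups again did not overlap, with a log2 fold change of -0.21 (SE 0.06). Fads2, whose desaturase starts the polyunsaturated pathway (chromosome 19, 10062765 to 10101746), had 160.5, 165.3 and 162.0 CPM in lesioned prefrontal cortex, against 180.3, 181.6 and 190.1 CPM in control prefrontal cortex. Its lesioned libraries were within 5 CPM of each other and all lower than the controls, at a log2 fold change of -0.19 (SE 0.05). Fads1, the desaturase of a later step (chromosome 19, 10182888 to 10196877), had 215.2, 221.4 and 211.3 CPM in lesioned prefrontal cortex, against 234.2, 239.0 and 234.3 CPM in control prefrontal cortex. It too did not overlap between groups, at -0.14 (SE 0.04). These 4 genes, grouped after their values were seen, had no overlap between the groups.

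The other 6 genes overlapped between the groups in prefrontal cortex. Elovl4, which makes very long polyunsaturated and saturated chains, had 77.5, 78.3 and 83.0 CPM in lesioned and 85.1, 86.3 and 80.6 CPM in control prefrontal cortex (log2 fold change -0.09, SE 0.05). The elongases of saturated chains Elovl1, Elovl7 and Elovl6 were at 0.03, 0.11 and 0.03, and the desaturases Scd1 and Scd2 at -0.02 and 0.04, with SE of 0.04 to 0.11. By edgeR's quasi-likelihood test with Benjamini-Hochberg adjustment at 0.05, 3 of the 10 genes were called lower and 0 higher, where 2.28% of 14018 tested genes were called lower, 3.45% higher and 5.73% in either direction. The groups did not overlap in 4 of the 10 genes and in 25.3% of all tested genes. Since the comparison was known when the family was chosen, nothing is read from these counts. Without any 1 library the log2 fold change of Elovl2 lay at -0.65 to -0.51. Elovl5 was called only when control library 3 was the one left out (-0.23), and Fads2 only when it was control library 2 (-0.20). Their fold changes over all such fits lay at -0.23 to -0.18 for Elovl5 and -0.20 to -0.17 for Fads2.

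Markers of several cell types were called lower in lesioned prefrontal cortex as well. Of all tested genes there, 2.28% were called lower and 3.45% higher. Of 10 astrocyte markers 6 were called lower, among them Sox9 (-0.56), Fgfr3 (-0.43) and the water channel gene Aqp4 (-0.35). None was called higher, and 1 of the 10 had a value above 0 (0.07). Their summed level was 5886 to 6085 CPM in lesioned and 6513 to 6884 CPM in control prefrontal cortex, with no marker at 0. Their part in the levels of Elovl2, Elovl5 and the Fads genes was not tested, and in bulk tissue fewer cells of a type and less RNA per cell cannot be told apart. Oligodendrocyte precursor and committed cell markers had 2 of 8 lower, with sums of 455 to 508 CPM in lesioned and 501 to 619 CPM in control prefrontal cortex. Myelinating oligodendrocyte markers had 1 of 11 lower, Mbp, and overlapping sums of 5573 to 7141 CPM in lesioned and 6564 to 9185 CPM in control prefrontal cortex. Endothelial and mural markers had 3 of 7 lower and 0 higher, and microglia markers 1 of 6 lower and 0 higher. General neuronal markers had 1 of 5 higher and 1 lower. Striatal projection neuron markers had 0 called, but 10 of 10 values lay below 0 (median -0.43), beside 51.6% of all tested genes. Cortical excitatory neuron markers had 0 called and 6 of 8 values above 0. The part of these cells was not tested either.

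In striatum none of the 10 genes passed the test. edgeR called 4 of 14288 genes there (0.0280%), with 0.00700% higher and 0.0210% lower, while 2475 had an unadjusted p below 0.05, among them Elovl2 and Fads2. Elovl2 had 15.2, 13.1 and 14.3 CPM in lesioned striatum, against 16.8, 18.3 and 16.5 CPM in control striatum. The groups did not overlap, but the log2 fold change of -0.28 (SE 0.10) had an adjusted p of 0.240. Fads2 had 181.3, 223.5 and 215.5 CPM in lesioned striatum, against 257.9, 233.4 and 251.0 CPM in control striatum, again without overlap (-0.27, SE 0.10, adjusted p = 0.247). Elovl4 was tightly grouped, at 60.4, 59.5 and 59.3 CPM in lesioned and 64.3, 66.6 and 65.5 CPM in control striatum (-0.14, SE 0.06, adjusted p = 0.300). Scd2 was the gene with the largest value above 0, with 2461, 2909 and 2427 CPM in lesioned striatum, against 2282, 1884 and 2391 CPM in control striatum (0.24, SE 0.13, adjusted p = 0.352). These 4 of 10 genes had groups that did not overlap, and so had 25.8% of all tested genes.

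The remaining striatal values overlapped between groups. Elovl5 had 91.6, 106.7 and 90.3 CPM in lesioned and 105.7, 86.1 and 105.2 CPM in control striatum, and Fads1 had 218.6, 241.7 and 230.3 CPM in lesioned and 246.3, 221.7 and 239.1 CPM in control striatum. Their 95% confidence intervals, -0.30 to 0.21 for Elovl5 and -0.23 to 0.15 for Fads1 on the log2 scale, include the prefrontal fold changes of these genes. Elovl7 was at 0.20, Scd1 at 0.17, Elovl1 at 0.12 and Elovl6 at -0.02, with SE of 0.11 to 0.16. Lesioned striatal library 2 held the highest value of all 12 libraries for Elovl1, Elovl5, Elovl6, Elovl7, Scd1 and Scd2, and also the highest summed level of myelinating oligodendrocyte markers (21839 CPM, against 13637 to 18949 CPM in the other 5 striatal libraries). Without it Scd1 was at -0.03 and Scd2 at 0.15. Without lesioned library 1 and control library 2 together, a choice made after seeing the data, Elovl2 was at -0.28 (adjusted p = 0.307), Fads2 at -0.22 (adjusted p = 0.229) and Scd2 at 0.19 (adjusted p = 0.458). Other marker lists had values on either side of 0 in striatum, with 0 called in each. Myelinating oligodendrocyte markers had 10 of 11 values above 0 (median 0.27), microglia 6 of 6 (median 0.29) and striatal projection neurons 10 of 10 (median 1.28). General neuronal markers had 3 of 5 above 0 (median 0.03). Precursor and committed cell markers had 6 of 8 values below 0 (median -0.17), and endothelial and mural markers 6 of 7 (median -0.07). Also below 0 were 5 of 5 choroid plexus and ependymal, 6 of 8 cortical excitatory neuron and 4 of 5 hypothalamic border markers. Astrocyte markers had 8 of 10 values below 0 (median -0.26), beside 50.7% of all tested genes, and 0 called in striatum. Their sums overlapped, at 4864 to 5688 CPM in lesioned and 5540 to 5709 CPM in control striatum. Their mean log2 of CPM plus 1 did not, at 7.44 to 7.65 in lesioned and 7.79 to 7.81 in control striatum. The groups did not overlap in 7 of the 10 markers, beside 25.8% of all tested genes. The part of these cell types in the striatal values was not tested.

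The lesion effects of the regions were set against each other in a fit of all 12 libraries, as the striatal log2 fold change minus the prefrontal one. None of the 10 genes passed, where 12 of 14545 genes did (0.0825%, with 0.0138% higher and 0.0688% lower). For Elovl2 the difference was 0.30 (SE 0.13, 95% confidence interval 0.01 to 0.59), given as a description, since the prefrontal values behind the choice of the family are part of this contrast. For Fads2 the difference was -0.08 (SE 0.11, interval -0.32 to 0.16), and for Elovl5 it was 0.16 (SE 0.12, interval -0.12 to 0.43). A difference between the regions in the response of these genes was therefore not shown, and effects of the sizes within those intervals could not be told apart.

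**Figure D2:**
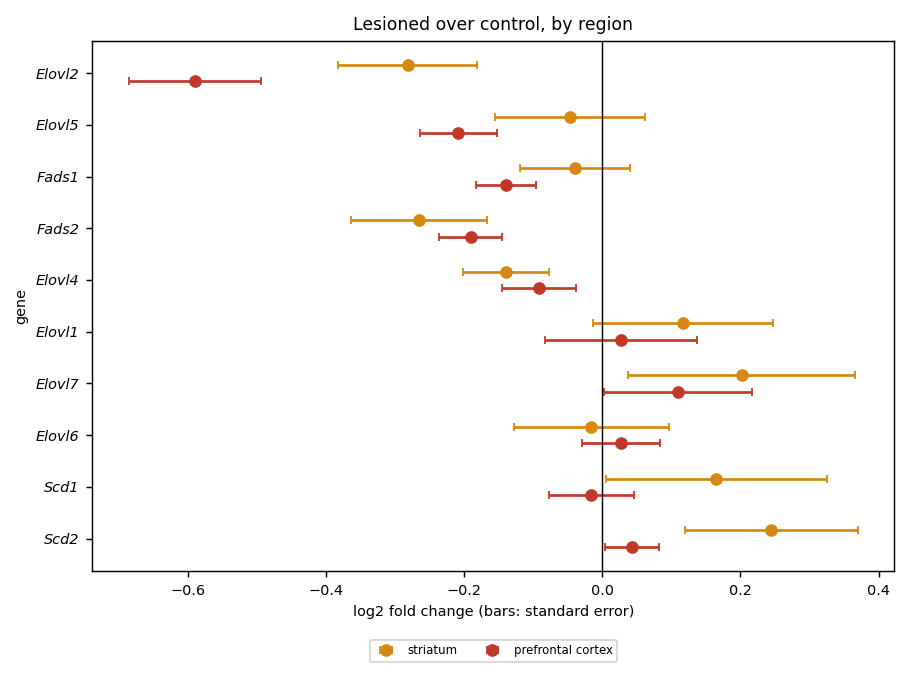
Log2 fold change of lesioned over control for each gene (rows) in striatum (orange, upper point) and prefrontal cortex (red, lower point), with standard errors, from fits of 6 libraries each. Elovl2, Fads2 and Elovl4 lie left of 0 in both regions with their bars, and the prefrontal bar is the shorter one for all 10 genes.

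The regions themselves were compared separately in lesioned and in control mice. Most of the family differed between them: in lesioned mice 7 of 10 genes were called higher in striatum and 1 lower, and in controls 6 were called higher and 2 lower, Elovl2 being 1 of those lower. Of all tested genes, 45.2% were called in lesioned mice (22.7% higher, 22.5% lower) and 42.3% in controls (21.3% higher, 21.0% lower). The median log2 fold change of the 10 genes was 0.48 in lesioned mice and 0.47 in controls, beside 0.02 in both for all tested genes. The groups did not overlap in 8 of 10 genes in either comparison, beside 58.2% of all genes in lesioned mice and 55.2% in controls. Without control striatal library 2 the calls in controls were 9, and without lesioned striatal library 1 those in lesioned mice were 8. These comparisons hold different libraries from each other but share them with the lesion comparisons.

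Elovl1 and Elovl7 had the largest regional fold changes of the 10 genes. Elovl1, which supplies such chains to sphingolipids (chromosome 4, 118428093 to 118432953), had 36.2, 38.0 and 30.8 CPM in lesioned striatum, against 17.6, 16.7 and 16.5 CPM in lesioned prefrontal cortex. Its level was 2.07-fold higher (log2 fold change 1.05, SE 0.10, adjusted p = 1.42e-04 in edgeR). In controls it had 27.9, 31.9 and 36.6 CPM in striatum, against 14.3, 15.9 and 19.5 CPM in prefrontal cortex (0.96, SE 0.14, adjusted p = 0.00103). The gene overlaps Cdc20 on the other strand, and the sources used here do not say whether the counting used strand. Elovl7, an elongase of the same substrate class (chromosome 13, 108214404 to 108285683), had 37.8, 47.8 and 32.5 CPM in lesioned striatum, against 21.9, 18.6 and 20.8 CPM in lesioned prefrontal cortex (0.95, SE 0.14, adjusted p = 0.00151). In controls it had 29.5, 34.3 and 38.6 CPM in striatum, against 15.9, 20.1 and 20.8 CPM in prefrontal cortex (0.86, SE 0.13, adjusted p = 0.00138). Elovl4 (chromosome 9, 83778692 to 83806277) went the other way, with log2 fold changes of -0.41 in lesioned mice (SE 0.06, adjusted p = 9.68e-04) and -0.36 in controls (SE 0.06, adjusted p = 0.00148). Its 6 striatal libraries, at 59.3 to 66.6 CPM, all lay below its 6 prefrontal ones, at 77.5 to 86.3 CPM.

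Elovl5, the Fads genes and Elovl2 did not share a regional direction. Elovl5 was higher in striatum, by 0.72 in lesioned mice (SE 0.08, adjusted p = 3.51e-04) and 0.56 in controls (SE 0.09, adjusted p = 0.00125). Fads2 was higher by 0.35 in lesioned mice (SE 0.09, adjusted p = 0.0135) and 0.43 in controls (SE 0.06, adjusted p = 9.18e-04). Fads1 did not differ beyond its spread, at 0.10 in lesioned mice (95% confidence interval -0.06 to 0.25) and 0.00 in controls (interval -0.14 to 0.14). For Elovl2 both region comparisons reuse prefrontal values on which the family was selected, so they are a description. Its regional log2 fold change was -0.10 in lesioned mice (SE 0.10) and -0.40 in controls (SE 0.10). The lesioned prefrontal libraries, at 14.6 to 16.4 CPM, overlapped the lesioned striatal ones, at 13.1 to 15.2 CPM. The control striatal libraries, at 16.5 to 18.3 CPM, lay below the control prefrontal ones, at 20.8 to 24.9 CPM.

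Elovl6 and Scd2 were called higher in striatum in both comparisons and Scd1 in lesioned mice. Elovl6, which turns palmitate into stearate (chromosome 3, 129532355 to 129638495), had 103.9, 133.8 and 116.3 CPM in lesioned striatum, against 79.2, 80.9 and 85.5 CPM in lesioned prefrontal cortex (0.53, SE 0.10, adjusted p = 0.00333), and its fold change in controls was 0.58 (SE 0.08, adjusted p = 6.11e-04). It shares 55 of 5851 windows of 101 bases with Gm11295. Scd2 (chromosome 19, 44293674 to 44306864) had 2461, 2909 and 2427 CPM in lesioned striatum, against 1594, 1592 and 1619 CPM in lesioned prefrontal cortex (0.70, SE 0.09, adjusted p = 8.37e-04), and 0.51 in controls (SE 0.09, adjusted p = 0.00270). Scd1 (chromosome 19, 44394455 to 44407879) had 266.1, 380.0 and 276.7 CPM in lesioned striatum, against 230.7, 236.6 and 219.8 CPM in lesioned prefrontal cortex (0.43, SE 0.14, adjusted p = 0.0342). In controls Scd1 was at 0.25 (SE 0.10, adjusted p = 0.0798), and at 0.34 (adjusted p = 0.00303) without control striatal library 2. The calls in lesioned mice of Scd1 and Fads2 were lost without any 1 of the lesioned prefrontal libraries, at 0.40 to 0.45 for Scd1 and 0.34 to 0.36 for Fads2, and that of Fads2 also without lesioned striatal library 3 (0.32, adjusted p = 0.0525).

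**Figure D3:**
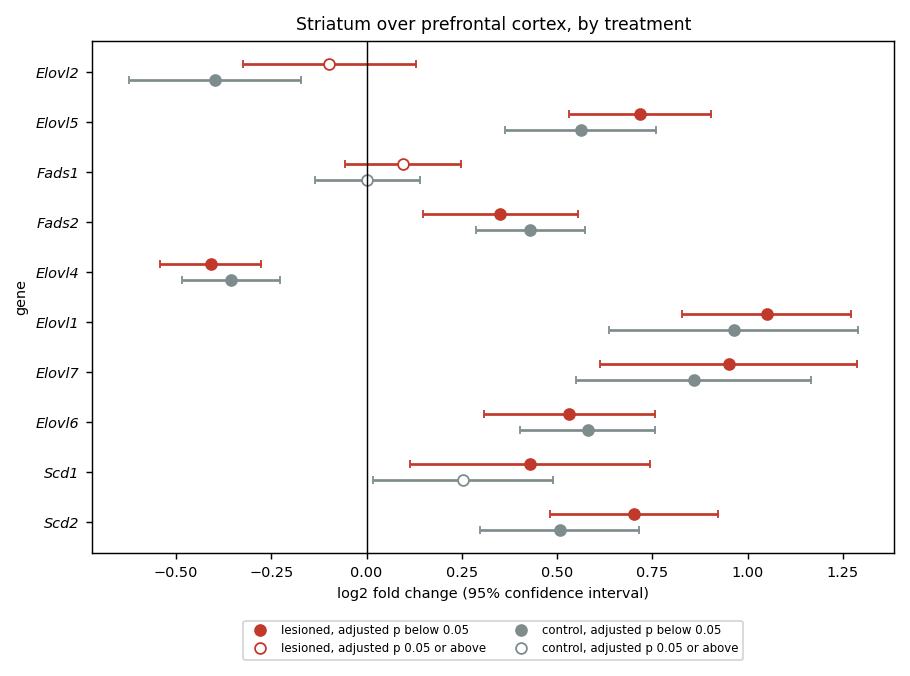
Log2 fold change of striatum over prefrontal cortex for each gene (rows) in lesioned mice (red, upper point) and controls (grey, lower point), with 95% confidence intervals; filled points have an adjusted p below 0.05 in edgeR. Elovl1 and Elovl7 lie farthest right (0.86 to 1.05), Elovl4 lies left of 0 in both, and Scd1 is filled in lesioned mice (0.43) and open in controls (0.25).

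Markers of several cell types and of bordering tissue moved with region. All 11 myelinating oligodendrocyte markers and all 8 precursor and committed cell markers were called higher in striatum, in lesioned mice and in controls. The myelinating markers summed to 13637 to 21839 CPM in lesioned striatum and 14999 to 18949 CPM in control striatum, against 5573 to 7141 CPM in lesioned and 6564 to 9185 CPM in control prefrontal cortex. Their median log2 fold change was 1.41 in lesioned mice and 1.08 in controls, larger than that of any of the 10 genes. Of 5 general neuronal markers 3 were lower in striatum in both comparisons. Astrocyte markers were mixed, with 3 of 10 higher in striatum in both comparisons and 1 lower in lesioned mice and 2 in controls. Over all tested genes 22.7% were called higher and 22.5% lower in lesioned mice, and 21.3% and 21.0% in controls. For a list of 10 genes the astrocyte counts lie near these shares, and nothing is read from them. Hypothalamic border markers were called higher in striatum for all 4 tested in lesioned mice and all 5 in controls, at sums of 87.0 to 245 CPM in lesioned and 151 to 270.4 CPM in control striatum, against 2.78 to 3.69 CPM in lesioned and 2.47 to 4.09 CPM in control prefrontal cortex. Choroid plexus and ependymal markers were higher for 3 of 5 in lesioned mice and 4 of 5 in controls. The part of any of these cells in the regional levels of Elovl1, Elovl7, Elovl5, Elovl6, Scd1 and Scd2 was not tested.

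**Figure D4:**
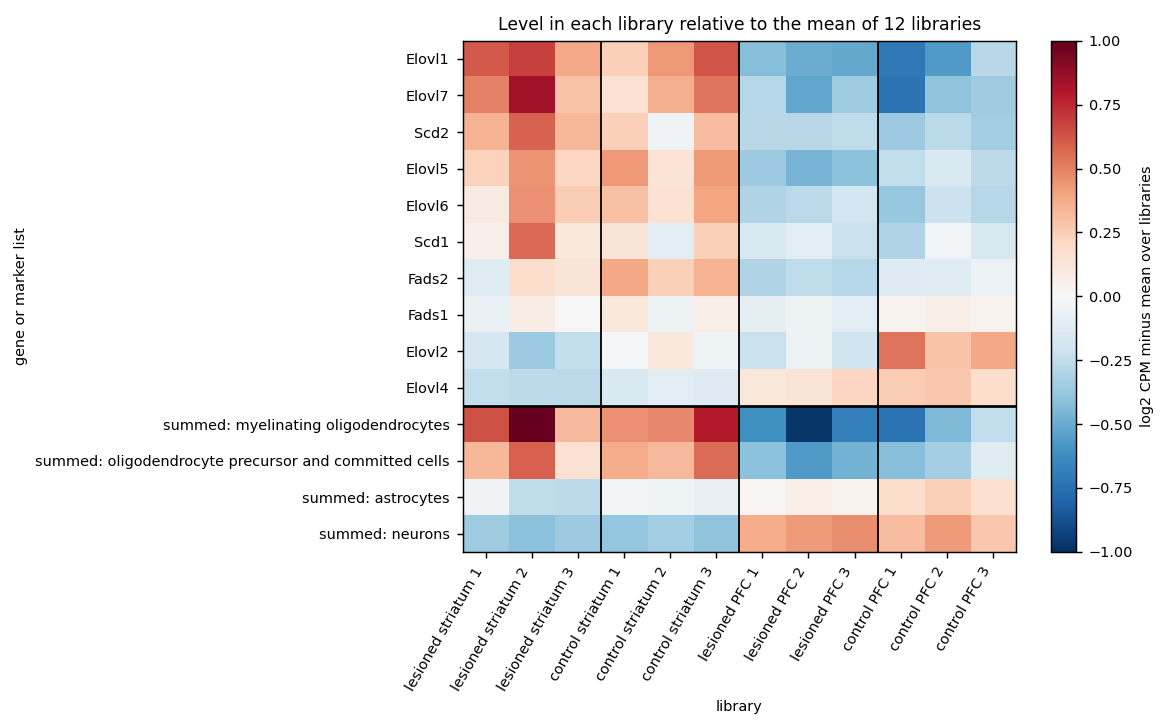
Log2 CPM minus its mean over the 12 libraries for the 10 genes (upper rows) and for summed marker lists (lower rows); columns are libraries by group, striatum left of prefrontal cortex (PFC), red above and blue below the mean, on a scale from -1 to 1. The upper 5 genes and the oligodendrocyte rows are red in nearly all striatal libraries and blue in the PFC ones, while Elovl2 is reddest in control PFC.

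The pathways around the family were described from 8 lists of 58 genes, put together with earlier results of these data known. In lesioned prefrontal cortex 3.45% of all tested genes were called higher and 2.28% lower. Fatty acid synthesis genes had 3 of 7 members called higher there and 0 lower, with a list median of 0.12 beside -0.01 for all tested genes. Acacb, whose enzyme makes the malonyl-CoA that restrains mitochondrial fatty acid oxidation, had 7.15, 7.48 and 7.20 CPM in lesioned and 4.54, 4.24 and 4.70 CPM in control prefrontal cortex (log2 fold change 0.68, SE 0.13, adjusted p = 0.00978). Acaca, the carboxylase that feeds fatty acid synthesis, rose by 0.26 (SE 0.05, adjusted p = 0.0138), and Fasn, the synthase itself, by 0.21 (SE 0.05, adjusted p = 0.0311). Of 10 regulators 2 rose, Insig1, which holds the sterol-sensing complex in the endoplasmic reticulum (0.31, SE 0.07, adjusted p = 0.0156), and Srebf2, the transcription factor of cholesterol synthesis (0.20, SE 0.04, adjusted p = 0.0175). Srebf1, its relative for fatty acid synthesis, was at -0.10 and not called. With an offset for GC content and transcript length Acaca (0.17), Fasn (0.12) and Srebf2 (0.19) were not called, and neither was Fads6 or Fabp7, named below. Of the leave-one-out fits, Acacb lost its call in that without lesioned library 2 (0.66, adjusted p = 0.0601) and Acaca without lesioned library 2 (0.24) or 3 (0.26). Fasn lost it without lesioned library 1 or 2 or control library 1 (0.17 to 0.20), Insig1 without lesioned library 1 or 3 or control library 1 (0.24 to 0.31), and Srebf2 without any lesioned library or control library 1 (0.18 to 0.22).

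The partners of the elongases did not pass. All 6 genes of the remaining steps of the elongation cycle, the reductases Hsd17b12 and Tecr and the dehydratases Hacd1 to Hacd4, had values below 0 in lesioned prefrontal cortex (median -0.11) and 0 were called. All 7 genes of peroxisomal oxidation, where docosahexaenoic acid synthesis ends, were likewise below 0 (median -0.07) with 0 called; 51.6% of all tested genes were below 0. Among acyl-CoA synthetases, which activate fatty acids, 1 of 8 fell, the astrocyte-rich Acsbg1, with 128, 127 and 127 CPM in lesioned and 160, 150 and 152 CPM in control prefrontal cortex (-0.29, SE 0.05, adjusted p = 0.00452). Of 4 tested genes of fatty acid binding and uptake 2 fell, where 2.28% of all tested genes were called lower. Mfsd2a, the transporter of docosahexaenoic acid at the blood-brain barrier, had 27.4, 26.9 and 22.0 CPM in lesioned and 36.2, 33.5 and 36.5 CPM in control prefrontal cortex (-0.49, SE 0.09, adjusted p = 0.00652). Fabp7, the fatty acid binding protein of astrocytes and radial glia, had 12.5, 16.6 and 11.7 CPM in lesioned and 26.9, 17.0 and 19.3 CPM in control prefrontal cortex (-0.66, SE 0.17, adjusted p = 0.0330). Endothelial and mural markers, taken as 1 list, had 3 of 7 lower. They summed to 311 to 327 CPM in lesioned and 361 to 391 CPM in control prefrontal cortex, and their part in the level of Mfsd2a was not tested. Acsbg1 and Mfsd2a kept their calls without any 1 library, while Fabp7 lost it without lesioned library 1 (-0.60) or 3 (-0.57) or control library 1 (-0.43).

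Among relatives and partners of the desaturases 1 of 6 tested genes was called higher in lesioned prefrontal cortex, beside 3.45% of all tested genes. This was Fads6, at 0.32 (SE 0.09, adjusted p = 0.0429). Its call held only without control library 3 and was lost without any other library (0.25 to 0.36). None of the 7 genes of myelin galactolipid synthesis was called. In striatum Fabp7 was the only called gene of the 8 lists, beside 0.0280% of all tested genes called there. It had 10.7, 14.1 and 11.8 CPM in lesioned striatum, against 29.9, 30.0 and 34.0 CPM in control striatum, a wide gap with no overlap (-1.37, SE 0.12, adjusted p = 0.0427). Its call was lost without any 1 of the 6 libraries, with values of -1.50 to -1.28, and was kept without lesioned library 1 and control library 2 together (-1.31, adjusted p = 0.0191). The difference between the regions in its lesion effect was -0.72 with an adjusted p of 0.337.

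**Figure D5:**
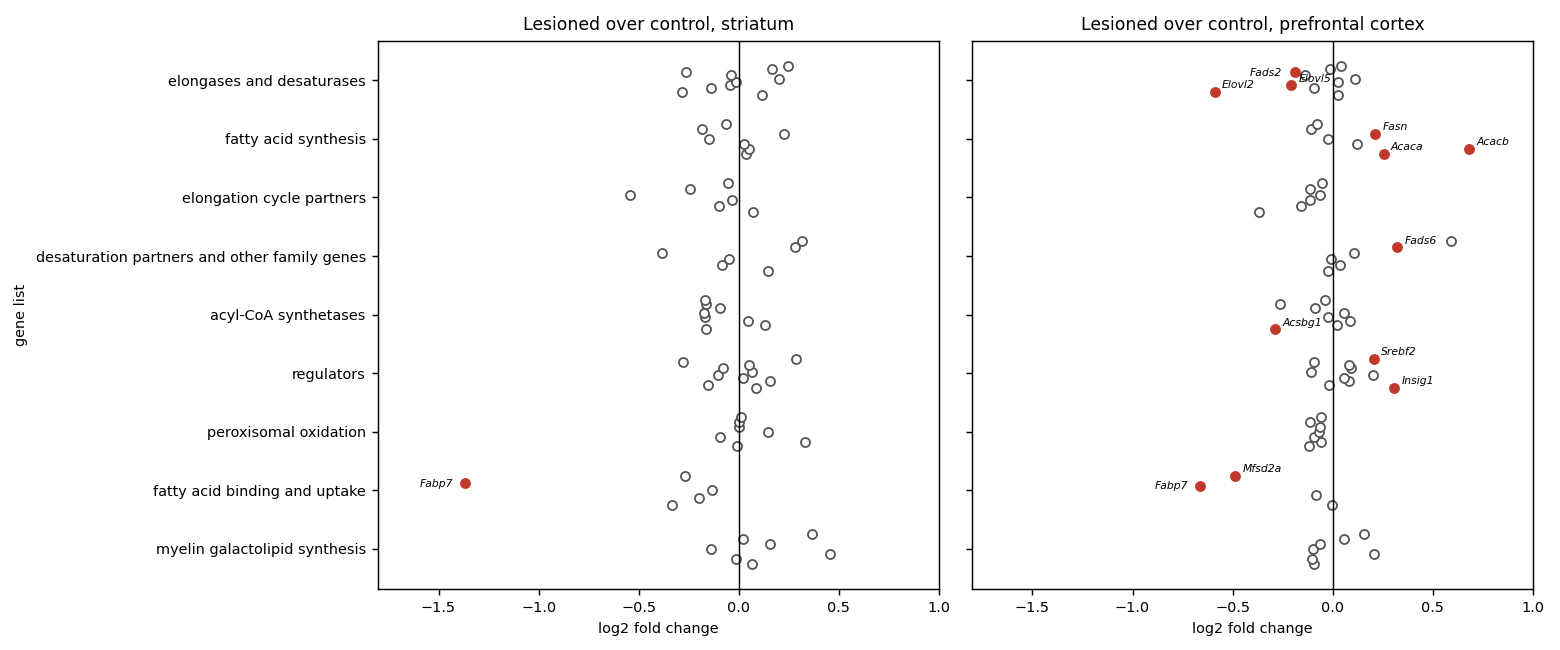
Log2 fold change of lesioned over control for every tested gene (points) of the family and of the 8 lists around it (rows), in striatum (left) and prefrontal cortex (right); filled red points have an adjusted p below 0.05 in edgeR and are named. In striatum Fabp7 (-1.37) is the only filled point, and in prefrontal cortex the filled synthesis genes and regulators lie right of 0 while the filled uptake genes lie left.

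Across the regions, 5 of 7 genes of myelin galactolipid synthesis were called higher in striatum and 0 lower in lesioned mice. In controls 5 were higher and 1 lower. Of all tested genes, 22.7% were called higher and 22.5% lower in lesioned mice, and 21.3% and 21.0% in controls. Fa2h, which hydroxylates the fatty acids of myelin galactolipids, was higher by 1.37 in lesioned mice (SE 0.17, adjusted p = 5.10e-04) and 1.13 in controls (SE 0.15, adjusted p = 5.96e-04), and Cers2, the ceramide synthase of very long chains, by 1.03 (SE 0.14) and 0.87 (SE 0.11) in the same comparisons. Fatty acid synthesis had 2 of 7 higher and 1 lower in lesioned mice and 3 higher and 1 lower in controls. For a list of 7 genes these counts lie near the shares over all genes, and nothing is read from them. Slc25a1, the mitochondrial citrate carrier (0.75 in lesioned mice, 0.74 in controls), and Acly, which splits citrate into acetyl-CoA (0.71 and 0.81), were higher in striatum, and Me1, the malic enzyme that supplies NADPH, was the lower one (-0.54 and -0.46). Srebf1 was higher by 0.75 in lesioned mice (adjusted p = 5.56e-04) and 0.94 in controls (adjusted p = 6.92e-05), and Rxra, the partner of lipid-sensing nuclear receptors, by 0.32 and 0.50. Of 8 acyl-CoA synthetases 2 were called higher and 3 lower in lesioned mice, and 0 higher and 4 lower in controls. Those with the smallest p were lower in striatum, Acsl5 (-1.62 in lesioned mice, -1.38 in controls) and Acsl4, which prefers arachidonic acid (-0.82 and -0.67). The desaturase relative Fads3 (-0.99 and -0.50) and the binding protein Fabp3 (-1.33 and -1.14) were lower too. Of 6 tested relatives and partners of the desaturases 1 was called higher and 3 lower in each comparison. Their lowest value was that of Scd3 (-1.36 and -1.08), with 17 to 77 counts per library. Scd3 shares windows of 101 bases with Scd1 and Scd2, so the Scd genes did not all have higher striatal values. Fads6 was higher (0.70 and 0.75). Fabp7 was higher in controls (0.57, adjusted p = 0.0235), a call lost without control prefrontal library 2 or 3 or control striatal library 3 (0.43 to 0.50), and Cd36, a fatty acid transporter, was at 0.69 in lesioned mice (adjusted p = 0.0923). Of 7 peroxisomal genes 3 were higher and 1 lower in lesioned mice, and 1 higher and 1 lower in controls. These counts too lie near the shares over all genes. Acaa1a, a thiolase of peroxisomal oxidation, was higher in lesioned mice (0.38, adjusted p = 0.00543). Abcd2, a peroxisomal fatty acid transporter, was the lower one in both, at -0.42 in lesioned mice and -0.80 in controls (adjusted p = 1.39e-04). Its relative Abcd3 was higher in both (0.24 each), but not without lesioned prefrontal library 1 (0.20) or 2 (0.24) in lesioned mice or control prefrontal library 1 (0.22) in controls. The 6 elongation cycle partners had no call in either comparison. Hacd4 (-0.56, adjusted p = 0.0506) and Hacd1 (0.29, adjusted p = 0.0949) were nearest in lesioned mice, and Hacd4 was called there under 4 of the alternatives. In controls Hsd17b12 (0.17, adjusted p = 0.101) and Hacd2 (-0.13, adjusted p = 0.161) were nearest.

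Genes with the pattern most like each member over the 12 libraries were found among 10235 genes of at least 10 CPM on average, by the root mean square difference of centred log2 CPM. Nearest to Elovl2 were Myorg (0.13), Zbtb40 (0.13) and Slco1c1 (0.13), where Elovl2 itself varied by 0.27 around its mean. Elovl1 was nearest to Ddr1 (0.10), Sox10 (0.10) and Mcam (0.10), and Elovl7 to Rhog, Slc12a2 and Cers2 (0.10 each). Elovl5 was nearest to Sash1, Qk and Aldh5a1 (0.08 to 0.09), and Fads2 to Mlc1, Spire2 and Frmd4a (0.05 to 0.06). Fads1, the steadiest gene at 0.07 around its mean, was nearest to Lrrc58, Ptbp2 and Rhoa (0.04). Elovl4 was nearest to Arl8a, Rab12 and Atp6v0b (0.03 to 0.04), Elovl6 to Endod1 (0.04), Scd1 to Plcl1, Shtn1 and Poglut1 (0.09 to 0.10) and Scd2 to Kif5b, Otud7b and Prkd3 (0.04 to 0.07). None of these nearest genes was another member, since members were left out of the candidates. Sox10 and Slco1c1 are also on the marker lists of oligodendrocyte precursors and endothelial cells.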

How the data were processed

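Libraries of mRNA from 500 ng of total RNA with an integrity number of at least 8.9 were read as 101 bp pairs, per the labels' protocols. The authors deposited raw read counts per gene symbol, and the submitters' processing notes list STAR 2.7.1a, featureCounts and mm10. The sources used here do not give the annotation or the strand setting. Genes holding only multiples of 11 (1830 of 18140 above 0, with 0.144% of all counts) were left out, as such values do not look like plain read counts, though how they arose is not known here, and no family member was among them. The other counts were tested with edgeR 4.0.16 in R 4.3.3 (filterByExpr, TMM factors, quasi-likelihood test), each comparison on its 6 libraries, because the spread differs between regions, and the difference of lesion effects on all 12. P-values were two-sided, adjusted over all tested genes, with calls at an adjusted p below 0.05. Library totals of 15078631 to 20925452 limit precision, and a count of 3 corresponds to 0.148 to 0.204 CPM, for counting error only. Log2 CPM used a prior count of 2. Transcript lengths come from GENCODE M21. The test was checked on simulated counts.

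The members, lists and tests were chosen with earlier results of these data known. Named are all members, up to 4 called genes per list and lesion comparison, the 2 smallest p per list in the region comparisons, and the 3 nearest genes by pattern (for Elovl6 the nearest, the rest not being reported here). Marker genes were named as context, Elovl3 because it was left out before the tests, and Me1 and Scd3 after their values were seen. Alternatives were RLE factors, DESeq2 1.42.0, voom and a spread per group in limma 3.58.1, no filter, the multiples of 11 kept or divided by 11, an offset for GC content and length, all 12 libraries in 1 fit, the replicate number as a block, and each library left out. No libraries held identical counts, and near-identity short of that was not tested.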

Additional observations from a re-analysis of the deposited data

How the results depend on the processing

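In lesioned prefrontal cortex the family's 3 calls became 1 with the replicate block and 1 with all 12 libraries in 1 fit, 2 with DESeq2, with the multiples of 11 kept or with the GC and length offset, and 1 to 2 without any 1 library. These calls are from the comparison on which the family was selected, and nothing is read from their number. The 9 called pathway genes there were not called in the 12-library fit. Whether the replicate numbers pair libraries of 1 animal was not settled. Same-numbered deviations correlated at -0.112 to 0.0921, and 0 to 4 of 6 libraries correlated best with their own number. Between the regions, where 1 mouse could give both libraries, these were 4 of 6 in controls and 3 of 6 in lesioned mice. Deviations of 3 libraries per group can neither show nor exclude a shared animal. No member was called in striatum or for the difference under any alternative run. In the region comparisons 8 were called under each alternative in controls (8 to 9 without 1 library), and in lesioned mice 8, or 7 with the GC and length offset (6 to 8 without 1 library). Over all genes, the 803 calls in prefrontal cortex were 30 in the 12-library fit and 195 to 1010 without 1 library, and the offset moved the split to 337 higher and 336 lower, against 484 and 319. The 4 calls in striatum became 529 with DESeq2, 0 with voom, the block or the multiples kept, 11 with the offset, 1040 in the 12-library fit, 0 to 2 without 1 library and 55 without lesioned library 1 and control library 2. The 12 calls for the difference became 116 with DESeq2, 2 with voom, 0 with the block or a spread per group, 5 with the multiples kept, 0 to 172 without 1 library and 101 without those libraries together.

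Values near 0 changed sign. Fads1 between regions in controls (0.0016) was at -0.0061 with RLE factors, -0.0060 with DESeq2, -0.0017 without the filter, -0.0027 with the multiples kept, -0.049 with the offset, -0.0011 in the 12-library fit and -0.028 to 0.041 without 1 library. Elovl6 in striatum was at 0.0073 without lesioned library 1 and control library 2. Without 1 library, prefrontal lesion values ranged from -0.069 to 0.15 for Elovl1, -0.012 to 0.066 for Elovl6, -0.0053 to 0.18 for Elovl7 and -0.081 to 0.053 for Scd1. Striatal ones ranged from -0.14 to 0.0050 for Elovl5, -0.13 to 0.066 for Elovl6 and -0.026 to 0.26 for Scd1. The difference ranged from -0.043 to 0.19 for Elovl1, -0.15 to 0.041 for Elovl6, -0.075 to 0.21 for Elovl7, -0.14 to 0.012 for Fads2 and -0.0063 to 0.28 for Scd1. In each of these cases no call was involved. Depth did not limit the members, whose lowest count was 244.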
